A study of Arabidopsis thaliana with 12 samples.

Results

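SAG29 (AT5G13170, also SWEET15) and SWEET17 (AT4G15920) are sugar transporters of the SWEET family of Arabidopsis thaliana. Each is annotated to 1 probe set, and these are 2 of the 13355 genes that have a probe set naming 1 gene. They were picked by name, with earlier results of these data known, as probe set 245982_at for SAG29 and 245524_at for SWEET17. Their signals were read on 12 oligonucleotide arrays of 1 colour, for which total RNA was labelled with biotin and taken from rosette leaves that were mature and unshaded, at developmental stage 3.7. The 4 groups of 3 arrays are ape2 in condition H, ape2 in condition L, Ws-2 in condition H and Ws-2 in condition L. ape2 carries a T-DNA insert in the background of Ws-2, a natural accession and here the wild type. According to its title the study is about mutation of TPT, the translocator that exports triose phosphate from the chloroplast. L and H are used as names only, since the titles do not say what they stand for. No probe set is named for TPT here, so the genotype labels were not checked on its transcript, and the labels do not say how many insertion lines or plants ape2 stands for.

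SWEET proteins are membrane channels that let sugars move down their concentration gradient, without the proton coupling used by SUC and STP carriers. SAG29 belongs to the plasma membrane members that carry sucrose out of cells, and it is named for its induction in ageing leaves. It is also known for responses to abscisic acid, salt and osmotic stress, and for feeding the embryo together with SWEET11 and SWEET12. SWEET17 sits in the membrane of the vacuole, where it moves fructose between the vacuole and the cytosol. It is known for controlling the fructose content of Arabidopsis leaves. In leaf tissue, fewer cells of a type and less RNA per cell cannot be told apart in such signals.

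The sampled leaves gave arrays of similar brightness. Their median signals ran from 36.2 to 40.1, with 63.7% to 67.7% of probe sets at 20 or above. RNA integrity can be read from actin, whose 3′ over 5′ signal ratio was lower in ape2 H (2.41 ± 0.12) than in ape2 L (2.73 ± 0.21), and lower in Ws-2 H (2.63 ± 0.36) than in Ws-2 L (2.98 ± 0.23, SD, n = 3 each). On the leading component of variation within groups, which held 25.6% of it, ape2 L 2, ape2 H 2 and Ws-2 H 1 stood highest. For the SWEET family and the listed pathway genes, calls in single contrasts that were lost without these 3 arrays are given as such. Of the 24 markers listed for leaf tissues, roots, dividing cells and flowers, 3 have a probe set named here, and none of the mesophyll, phloem, xylem or epidermis markers does, so the leaf label was not checked on those.

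SAG29 had signals of 28.5, 55.6 and 70.3 in ape2 H and of 6.40, 7.80 and 1.5 in ape2 L. In Ws-2 it had 89.3, 81.8 and 115 in condition H, and 20.4, 25.4 and 20.6 in condition L. The 4 groups did not overlap, and their order from high to low was Ws-2 H, ape2 H, Ws-2 L and ape2 L. Separate groups in this order were found for 0.0871% of tested probe sets. All 3 ape2 L arrays were below a signal of 20, the level used here to set dim transcripts apart, while the 9 other arrays were above it. The group means were 51.5 ± 21.2 in ape2 H, 5.23 ± 3.31 in ape2 L, 95.4 ± 17.5 in Ws-2 H and 22.1 ± 2.83 in Ws-2 L (SD, n = 3 each). The ape2 H arrays were the most scattered, with ape2 H 1 lying just above the highest Ws-2 L array.

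SWEET17 was bright on every array. Its signals were 301, 296 and 330 in ape2 H and 313, 185 and 258 in ape2 L, against 463, 505 and 359 in Ws-2 H and 439, 442 and 417 in Ws-2 L. All 6 ape2 arrays were lower than all 6 Ws-2 arrays, which held for 3.86% of tested probe sets, while within each genotype the conditions overlapped. The means were 309 ± 18.4 in ape2 H, 252 ± 64.3 in ape2 L, 442 ± 75.1 in Ws-2 H and 433 ± 13.5 in Ws-2 L (SD, n = 3 each). The lowest value of all was on ape2 L 2, and the spread was widest in ape2 L and Ws-2 H.

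**Figure D1:**
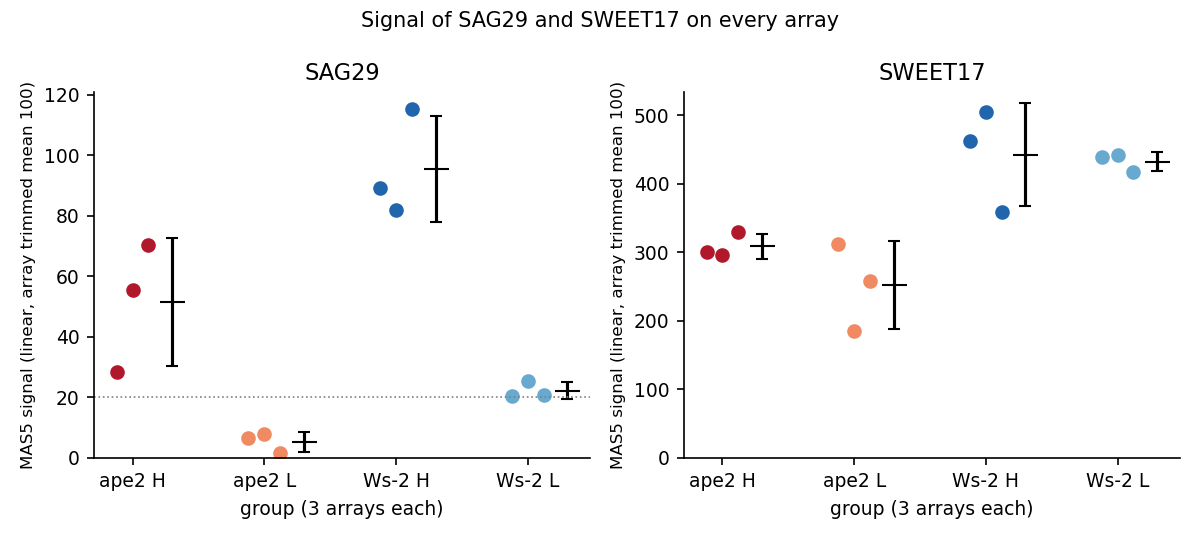
Linear signal of SAG29 (left) and SWEET17 (right) on each array, for the 4 groups of 3 arrays. Points are arrays, the bars beside them are the mean ± SD, and the dotted line marks a signal of 20. The SAG29 groups do not overlap, with ape2 L between 1.5 and 7.80, as in the same order for 0.0871% of tested probe sets. For SWEET17 all 6 ape2 arrays lie below all 6 Ws-2 arrays, as for 3.86% of them.

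The comparison of condition H with condition L asks how leaf transcripts respond to the condition in each genotype. SAG29 rose in H in both genotypes, and SWEET17 did not pass the test in either. The labels do not say whether arrays of a group came from separate plants, so the p-values below speak of the spread among these arrays alone, which may be technical. Mean SAG29 signal was 9.83 times as high in ape2 H as in ape2 L, and 4.31 times as high in Ws-2 H as in Ws-2 L. The ape2 ratio has a dim denominator, and that of the Ws-2 ratio, with signals from 20.4 to 25.4, is near the limit of 20. No detection calls were used here to say whether SAG29 was above background in ape2 L or Ws-2 L. Changes were tested on log2(signal + 10) with limma's moderated test over 16076 probe sets, with p-values adjusted by the Benjamini-Hochberg method and a call at an adjusted p under 0.05. The offset of 10 shrinks the changes of dim transcripts, so on that scale SAG29 rose by 1.97 ± 0.23 in ape2 (SE, adjusted p = 2.01e-04) and by 1.70 ± 0.23 in Ws-2 (adjusted p = 8.33e-04). With an offset of 1 the rise was 3.17 in ape2 and 2.05 in Ws-2, and with an offset of 32 it was 1.13 and 1.23, so that the order of the genotypes depends on the offset.

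Few probe sets rose in H, namely 1.79% of those tested in ape2 and 1.03% in Ws-2. Separate ranges with H higher, as SAG29 had, were found for 8.91% of probe sets in ape2 and for 9.64% in Ws-2. Ordered by size from the largest rise, SAG29 was in position 2 in ape2 and in position 5 in Ws-2. At an offset of 1 these positions were 2 and 6, and at an offset of 32 they were 6 in each genotype. Both calls were kept without each of the 12 arrays in turn, when the rise ranged from 1.75 to 2.28 in ape2 and from 1.57 to 1.80 in Ws-2. The actin 3′ to 5′ ratio had lower means in H in both genotypes, as given above, and its part in the SAG29 rise was not tested.

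For SWEET17 the change between conditions was small beside its spread. On the log2 scale it was 0.31 ± 0.15 in ape2 (SE, adjusted p = 0.305), with a 95% interval from -0.01 to 0.64. In Ws-2 it was 0.02 ± 0.15 (adjusted p = 0.983), with an interval from -0.31 to 0.35. The ape2 value rests partly on the low array ape2 L 2, since without it the change was 0.12 (adjusted p = 0.679). Over both genotypes the SAG29 change in H was 1.84 ± 0.17 (adjusted p = 5.54e-06), against 0.17 ± 0.11 for SWEET17 (adjusted p = 0.429), in a contrast where 3.65% of probe sets were called higher.

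The comparison of ape2 with Ws-2 asks what the mutant line does to these transcripts. SAG29 and SWEET17 were both lower in ape2. Averaged over the conditions, SAG29 fell by 0.96 ± 0.17 on the log2 scale (SE, adjusted p = 6.59e-04) and SWEET17 fell by 0.64 ± 0.11 (adjusted p = 7.58e-04). Here 9.79% of tested probe sets were called lower. Both calls were kept without each array in turn, with ranges from -1.08 to -0.81 for SAG29 and from -0.72 to -0.54 for SWEET17.

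Within condition L both genes fell in ape2, where 4.76% of tested probe sets were called lower and 12.9% had separate ranges with ape2 lower. The SAG29 change was -1.10 ± 0.23 (SE, adjusted p = 0.00718, 95% interval -1.60 to -0.60), position 18 among the falls ordered by size. The SWEET17 change was -0.79 ± 0.15 (adjusted p = 0.0045, interval -1.11 to -0.46), position 99. At an offset of 1 the SAG29 change was -2.08, and at an offset of 32 it was -0.54. With these offsets SAG29 took positions 7 and 168 and SWEET17 positions 192 and 51, so their order by size depends on the offset. In linear signal the Ws-2 L mean of SAG29 was 4.23 times that of ape2 L, and for SWEET17 it was 1.72 times. Without ape2 L 2, the array with the lowest SWEET17 signal, the SWEET17 change was -0.59 (adjusted p = 0.0068), and it remained called.

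Within condition H only SAG29 was called, with 5.54% of tested probe sets called lower in ape2. SAG29 passed, at -0.83 ± 0.23 (SE, adjusted p = 0.0337), and SWEET17 did not, at -0.49 ± 0.15 (adjusted p = 0.0561, 95% interval -0.82 to -0.16). The lowest Ws-2 H signal was 1.16 times the highest ape2 H signal for SAG29, and 1.09 times for SWEET17. Ranges of the 2 genotypes were likewise separate in this condition, in the same direction, for 15.7% of all tested probe sets. The SAG29 call was lost when ape2 H 1, ape2 H 2, Ws-2 H 1 or Ws-2 H 3 was left out. Without ape2 H 1, which had the lowest SAG29 signal of its group, the change was -0.53 (adjusted p = 0.136). It was also lost at an offset of 1 (adjusted p = 0.179), without the filter on dim probe sets (0.0664), with only the 2 groups in the fit (0.1) and without the 3 arrays named above (0.078). The SWEET17 change was called without Ws-2 H 3, its lowest Ws-2 array, at -0.63 (adjusted p = 0.0218), and also without ape2 L 1 or ape2 L 2, which leave the change itself as it was. It was called, too, with only the 2 groups in the fit (adjusted p = 0.0226).

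**Figure D2:**
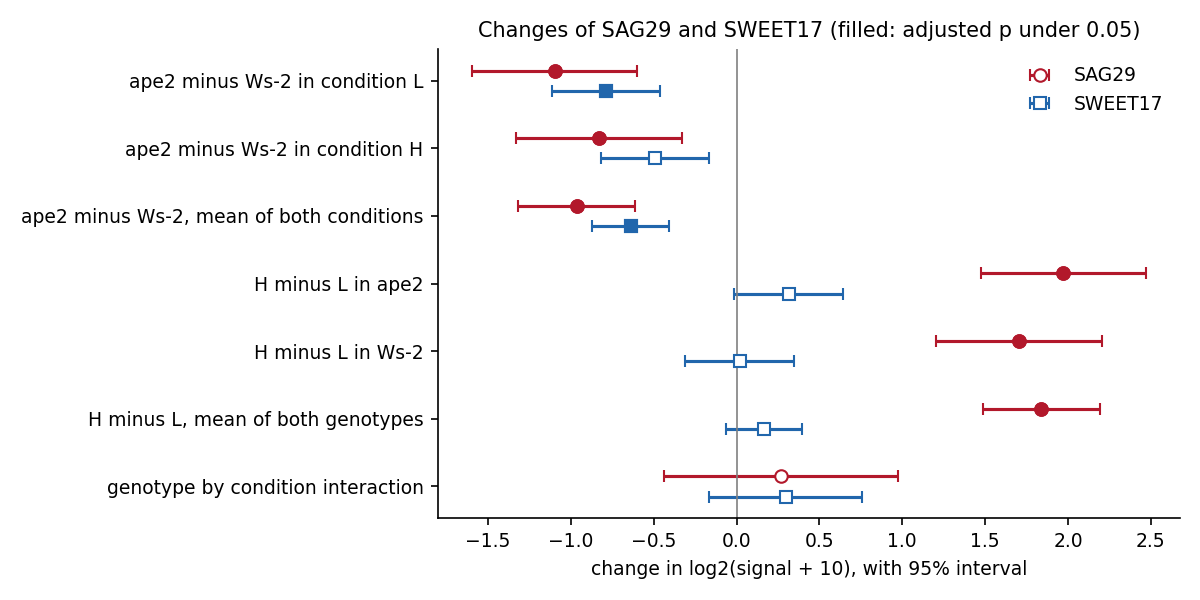
Changes in log2(signal + 10) with their 95% intervals for SAG29 (circles) and SWEET17 (squares) in 7 contrasts of the 4 groups. Filled symbols passed an adjusted p of 0.05, which SAG29 did in 6 contrasts and SWEET17 in condition L and in the mean of both conditions.

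Whether the genotype difference itself changed with the condition was tested as an interaction. It was 0.27 ± 0.33 for SAG29 (SE, adjusted p = 0.903, 95% interval -0.44 to 0.97) and 0.30 ± 0.22 for SWEET17 (adjusted p = 0.809, interval -0.17 to 0.76). Among all probe sets 0.0187% were called. For SAG29 the sign of the interaction depended on the scale, with 1.12 at an offset of 1 (adjusted p = 0.699) and -0.09 at an offset of 32 (adjusted p = 0.954). In linear signal the H mean exceeded the L mean by 46.2 in ape2 and by 73.3 in Ws-2, so the rise was smaller in ape2 as a difference and larger as a ratio. The call of SWEET17 in condition L and its absence in condition H therefore do not show that the genotype effect differed between the conditions.

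The order of group levels was completed by setting ape2 H against Ws-2 L, a comparison added after the values were seen, in which genotype and condition differ together and 12.2% of probe sets were called. SAG29 was higher in ape2 H than in Ws-2 L by 0.87 ± 0.23 (SE, adjusted p = 0.0229). SWEET17 differed by -0.47 ± 0.15 (adjusted p = 0.0599). For SAG29 each step of the order passed the test with all 12 arrays in the fit, but the order itself was read from the same values. The step from Ws-2 H to ape2 H lost its call in 4 of the 12 fits that left out an array. Whether the step from ape2 H to Ws-2 L holds with arrays left out or at other offsets was not tested. For SWEET17 the order of means was Ws-2 H, Ws-2 L, ape2 H and ape2 L, and none of its neighbouring steps passed the test, although ape2 H lay below Ws-2 L without overlap, as for 15.9% of tested probe sets.

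**Figure D3:**
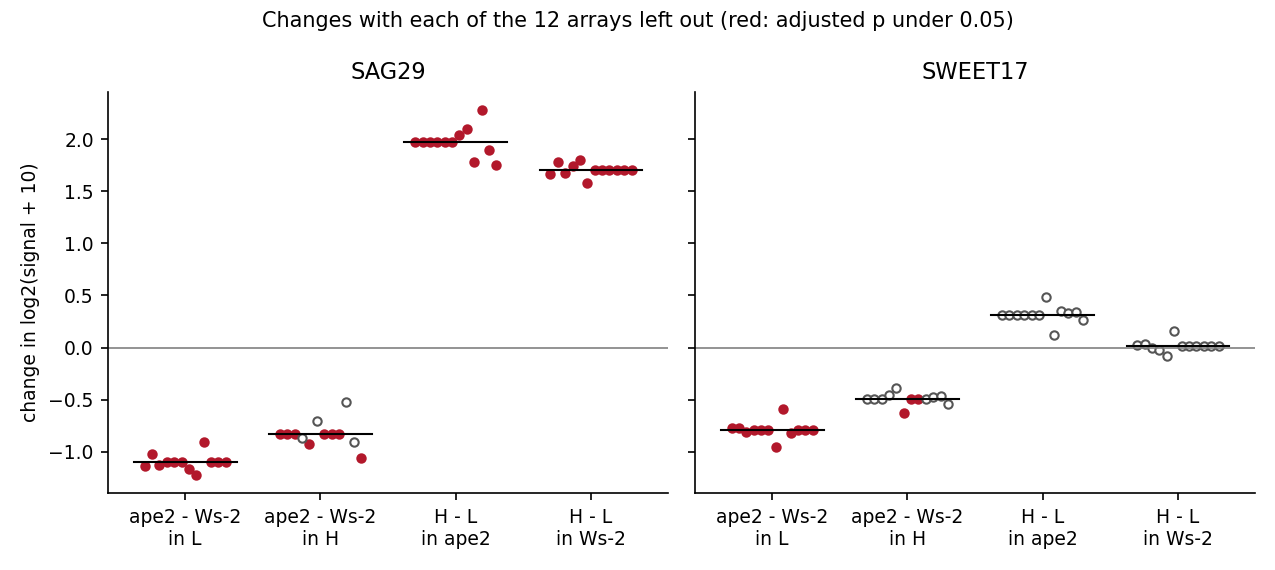
Changes of SAG29 (left) and SWEET17 (right) in 4 contrasts when each of the 12 arrays was left out. Each point is a fit without 1 array, red where the adjusted p was under 0.05, and the line is the change with all arrays. The SAG29 change between genotypes in condition H lost its call in 4 of the 12 fits, while its rise in H kept it in all 12 in each genotype.

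A small set of probe sets had the same 4 calls as SAG29, namely lower in ape2 in each condition and higher in H in each genotype. They numbered 18, or 0.112% of those tested, of which 9 name 1 gene. Apart from SAG29 these are CSLA01, JMT, TBL26, CYP71B26, AT5G44050, AT5G42760, AT2G27420 and AT2G41040, named here after their values were seen. Whether the calls of these other genes hold with arrays left out was not tested. Groups that did not overlap, in the order Ws-2 H, ape2 H, Ws-2 L, ape2 L, were found for 14 probe sets, or 0.0871% of those tested. Only 4 probe sets were in both sets, among them SAG29, CYP71B26 and AT5G42760.

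Likeness to each transporter was measured as Pearson's r of log2(signal + 10) over the 12 arrays, among named and tested probe sets. Since the arrays fall into 4 groups, a high r can come from shared differences between group means alone. The gene most like SAG29 was AT5G42760 (r = 0.97), with signals of 247 ± 16.9 in ape2 H, 157 ± 5.31 in ape2 L, 305 ± 12.0 in Ws-2 H and 207 ± 8.17 in Ws-2 L (SD, n = 3 each). It was followed by AT4G28290 (r = 0.96), AT3G22550 (0.94), the cytochrome P450 gene CYP71B26 (0.94) and the glucosyltransferase gene UGT71B1 (0.94). These 5 have smaller changes in H than SAG29, from 0.51 to 0.94 in ape2 and from 0.31 to 0.83 in Ws-2 on the log2 scale. Not all of them had the genotype calls of SAG29. In condition H, AT4G28290 (adjusted p = 0.258), AT3G22550 (0.138) and UGT71B1 (0.561) were not called lower in ape2, and in condition L AT3G22550 was not (0.0607). The most opposite to SAG29 were PORB, an enzyme of chlorophyll synthesis (r = -0.95), EXPA8, an expansin that loosens cell walls (r = -0.95), and AT1G28060 (r = -0.95). PORB had signals of 531 ± 29.6 in ape2 H, 735 ± 21.9 in ape2 L, 386 ± 12.7 in Ws-2 H and 571 ± 42.7 in Ws-2 L, the reverse of the SAG29 order.

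For SWEET17 the most alike were AT5G36160 (r = 0.93), AT5G67150 (0.92), AT3G17130 (0.92), AT4G18280 (0.92) and AT2G17340 (0.91). AT5G36160 had signals of 374 ± 15.3 in ape2 H, 309 ± 33.9 in ape2 L, 553 ± 22.1 in Ws-2 H and 520 ± 30.6 in Ws-2 L (SD, n = 3 each). AT4G18280 also followed SWEET17 within groups, with r = 0.97 for the deviations from the group means, the highest of the 5. The others had from 0.59 to 0.70, and the 5 genes most like SAG29 had from -0.005 to 0.48 with it. All were picked by r over the same 12 arrays, which holds the part within groups. The most opposite to SWEET17 were AT1G65490 (r = -0.93), AT4G01700 (-0.92) and AT1G33420 (-0.91). SAG29 and SWEET17 had an r of 0.54 with each other over the 12 arrays and of -0.21 within groups, where the scatter of the arrays around their group means did not run together.

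The SWEET family served as the frame for these 2 members. Probe sets name 16 of its 17 genes, and 14 were tested, with SWEET7 and SWEET5 (AtVEX1, a gene of pollen) left out as dim. In condition L the members called lower in ape2 were the 2 transporters themselves, of 14 tested, against 4.76% of all probe sets. The other 12 had a median change of 0.07, against 0.01 over all probe sets tested. In condition H the 2 calls, against 5.54% of all probe sets, were SAG29 and SWEET2. The 12 members beside the transporters had a median of -0.02, against -0.01 over all. In H against L the calls were SAG29, higher in each genotype, and SWEET13, lower in each genotype. The shares of all probe sets called higher were 1.79% in ape2 and 1.03% in Ws-2, and those called lower were 2.25% in ape2 and 1.92% in Ws-2. With quantile normalization a further member was called lower in ape2, SWEET11, at -0.25 (adjusted p = 0.019). The family counts in condition H rest on few arrays, since SAG29 and SWEET2 both lost their calls without ape2 H 2, and 1 call was left without the 3 arrays named above.

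SWEET13, a sucrose transporter of the plasma membrane like SAG29, went the other way with the condition. Its signals were 114, 93.1 and 114 in ape2 H and 168, 142 and 171 in ape2 L, against 116, 100.3 and 107 in Ws-2 H and 163, 153 and 170 in Ws-2 L. The conditions did not overlap in either genotype, as for 12.9% of probe sets lower in H in ape2 and 10.1% in Ws-2, while 2.25% were called lower in ape2 and 1.92% in Ws-2. The change in H was -0.54 ± 0.10 in ape2 (SE, adjusted p = 0.00579) and -0.54 ± 0.10 in Ws-2 (adjusted p = 0.00609), while ape2 differed from Ws-2 by -0.01 in each condition (adjusted p = 0.958 in L and 0.957 in H). SWEET11, which exports sucrose from phloem parenchyma for loading into the phloem, was bright, with 831 ± 59.6 in ape2 H, 953 ± 12.7 in ape2 L, 864 ± 19.6 in Ws-2 H and 925 ± 11.2 in Ws-2 L (SD, n = 3 each). Its change in H was -0.20 in ape2 (adjusted p = 0.0963) and -0.10 in Ws-2 (adjusted p = 0.562). SWEET14, another member of that clade, was near a signal of 20 in all groups, with changes in H of 0.02 in ape2 and -0.36 in Ws-2 (adjusted p = 0.971 and 0.352).

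Among members of the vacuolar membrane, SWEET16, the closest relative of SWEET17, did not follow it. Its signals averaged 29.8 ± 2.34 in ape2 H, 38.9 ± 1.74 in ape2 L, 31.3 ± 10.03 in Ws-2 H and 37.0 ± 7.15 in Ws-2 L (SD, n = 3 each), and the ape2 change was 0.07 in condition L (adjusted p = 0.856), against -0.02 in condition H (0.958). SWEET2, which carries glucose across the vacuolar membrane, had signals of 231, 207 and 214 in ape2 H against 266, 295 and 280 in Ws-2 H. These ranges did not overlap, as for 15.7% of tested probe sets in that direction. That change was -0.35 ± 0.08 (SE, adjusted p = 0.012), lost without Ws-2 H 2 or ape2 H 2 (adjusted p up to 0.0573). In condition L the SWEET2 change was -0.02 (adjusted p = 0.942), and its interaction of -0.34 did not pass the test (adjusted p = 0.493). SWEET1, a glucose transporter of the plasma membrane, was at 0.15 in condition L and -0.02 in condition H (adjusted p = 0.342 and 0.915). The remaining members, SWEET3, SWEET4, SWEET6, SWEET8, SWEET9 and SWEET10, were not called in any of the 7 contrasts, with signals from 11.7 to 78.9.

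**Figure D4:**
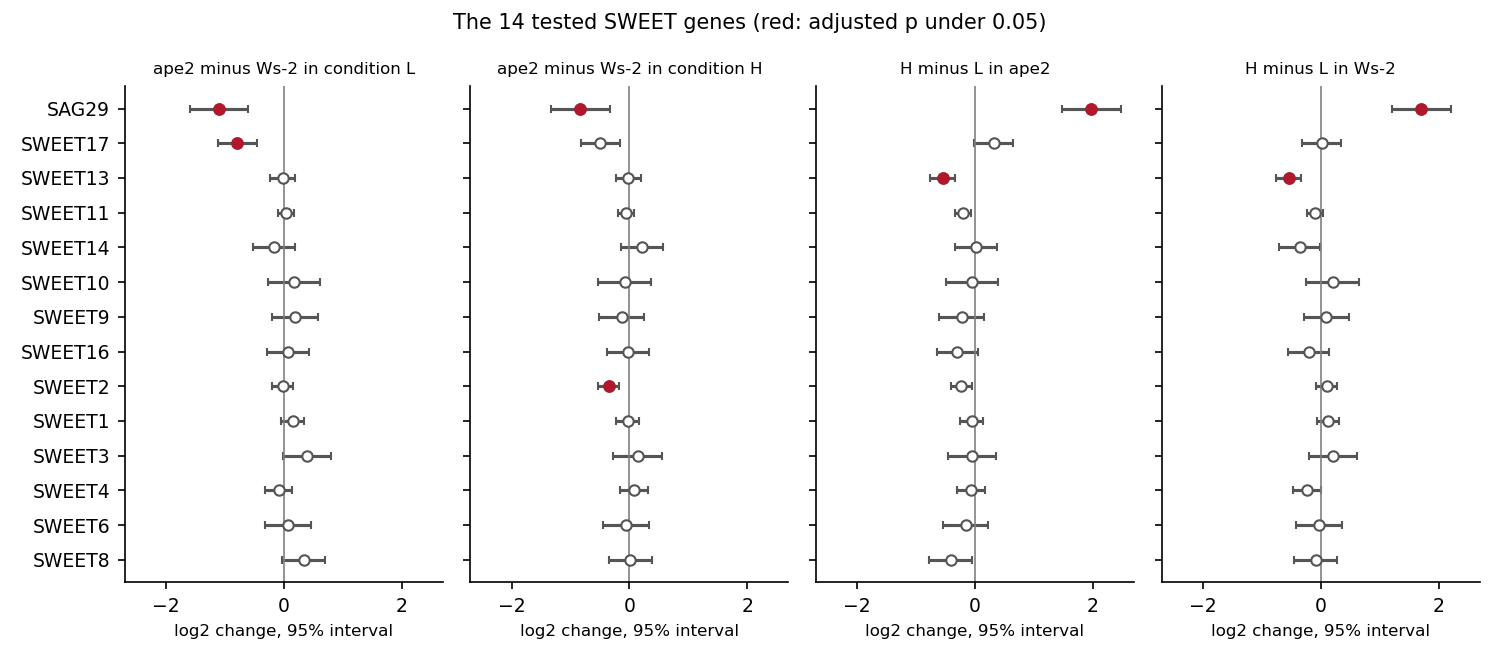
Changes in log2(signal + 10) with 95% intervals for the 14 tested SWEET genes in 4 contrasts, with red points where the adjusted p was under 0.05. SAG29 is at 1.97 and 1.70 for H against L in ape2 and in Ws-2, SWEET13 at -0.54 in each, and most other members lie near 0.

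Other carriers of sugar showed few calls. Of the 44 transporters listed outside the SWEET family 11 have a probe set named here and 9 were tested. In condition L 0 were called by limma, with 2 at an unadjusted p under 0.05, and 6 of 9 changes were negative, with a median of -0.08 against 0.01 over all probe sets. In condition H all 9 changes were negative, as were 8453 of the 16076 over all probe sets, and the median was -0.20 against -0.01. Of the 9, 1 was called lower, against 5.54% of all. It was AT1G19450, at -0.64 ± 0.09 (SE, adjusted p = 1.49e-04), with signals of 1057, 882 and 963 in ape2 H against 1441, 1596 and 1499 in Ws-2 H. TMT1 and TMT2, which load monosaccharides into the vacuole, were at -0.17 and -0.20 in condition H, and TMT3 was at -0.06. None of these was called. In ape2, AT1G19450 was also lower in H than in L, at -0.35 (adjusted p = 0.0314), where 2.25% of all probe sets were called lower. That call was lost in 4 of the 12 fits that left out an array (adjusted p up to 0.125). Averaged over the conditions, 2 of the 9 were called lower in ape2, against 9.79% of all probe sets. They were AT1G19450, at -0.46 (adjusted p = 5.91e-05), and AT5G17010, at -0.20 (adjusted p = 0.0396). The AT5G17010 call was lost in 9 of the 12 fits that left out an array (up to 0.105) and without the 3 arrays named above (0.185).

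Sugar metabolism around the transporters was measured for a few genes. Of 23 invertases and sucrose synthases 2 were tested. AT1G62660 rose in H in ape2 at 0.60 (adjusted p = 0.0493), where 1.79% of all probe sets were called higher. That call was lost in 10 of the 12 fits that left out an array (adjusted p up to 0.187) and without the 3 arrays (0.079). Of 21 genes of hexose phosphorylation and sucrose synthesis 7 were tested. AT2G35840 fell in ape2, at -0.33 in condition L (adjusted p = 0.00878) and -0.30 in condition H (adjusted p = 0.0143). The shares of all probe sets called lower there were 4.76% in L and 5.54% in H. ATSPS4F, a sucrose phosphate synthase, was higher in ape2 in condition H at 0.32 (adjusted p = 0.0227), where 4.98% of probe sets were called higher. The call of AT2G35840 was lost in condition L without Ws-2 L 3 (adjusted p = 0.0509) and in condition H in 3 fits that left out an array (up to 0.0571) and without the 3 arrays (-0.24, adjusted p = 0.11). The call of ATSPS4F was lost in 3 fits that left out an array (up to 0.114).

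SAG29 takes its name from senescence, and of the 30 senescence genes listed 5 have a probe set named here and 4 were tested. SAG29 was the only one of the 4 called in any contrast. SAG101, a lipase-like protein named for the same process, changed by -0.03 in H in ape2 and by -0.02 in Ws-2 (adjusted p = 0.969 and 0.983), and ape2 differed from Ws-2 by 0.30 in each condition (adjusted p = 0.414 in L and 0.43 in H). WRKY53, a transcription factor that acts early in leaf senescence, changed by -0.06 in H in ape2 and by -0.04 in Ws-2, and WRKY22 by -0.34 and -0.22. WRKY6 was left out as dim. The 3 other tested senescence genes had a median change in H of -0.06 in ape2 and -0.04 in Ws-2, against -0.03 and 0.00 over all probe sets.

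Of the 24 listed genes of abscisic acid, drought and cold responses 3 were tested, and their calls with the condition were in the direction opposite to SAG29. COR15A and COR15B, which encode chloroplast proteins that protect membranes in the cold, had signals of 1577 ± 218 and 831 ± 117 in ape2 H, 1813 ± 106 and 1099.6 ± 81.4 in ape2 L, 1437 ± 145 and 744 ± 84.6 in Ws-2 H, and 2270.4 ± 352 and 1286 ± 70.0 in Ws-2 L (SD, n = 3 each). In ape2 COR15A was at -0.21 (adjusted p = 0.383). COR15B changed there by -0.41 (adjusted p = 0.0372), a call lost without 6 of the 12 arrays and without the 3 arrays of the within-group component (-0.34, adjusted p = 0.0748). The dehydrin COR47 changed by -0.51 in ape2 (adjusted p = 0.0109), a call lost without ape2 L 1 (adjusted p = 0.0571) and without the same 3 arrays (0.0553). In Ws-2 COR15A and COR15B fell in H, with changes of -0.65 (adjusted p = 0.00523) for COR15A and -0.79 (adjusted p = 5.45e-04) for COR15B, and COR47 was at -0.26 (adjusted p = 0.251). The 2 calls of 3 in each genotype stand against 2.25% of all probe sets called lower in ape2 and 1.92% in Ws-2. Between the genotypes 0 of the 3 were called by limma in either condition, with 2 at an unadjusted p under 0.05 in L and 0 in H.

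Few markers of other cell types could be set beside the transporters. FMA (guard cells), EXPA7 (root hairs) and AUR1 (dividing cells), each the 1 marker of 3 with a named probe set in its list, were called in none of the 7 contrasts by limma, and 0 had an unadjusted p under 0.05. FMA had signals from 46.0 to 57.9 in ape2 H, from 48.4 to 68.4 in ape2 L, from 38.9 to 48.2 in Ws-2 H and from 44.8 to 59.0 in Ws-2 L. EXPA7 lay between 12.3 and 26.8, around the limit of 20, and AUR1 between 46.1 and 59.2 over all arrays. No detection calls were used, so whether these 3 transcripts were above background was not tested. The part of these 3 cell types in the SAG29 and SWEET17 differences was not tested.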

How the data were processed

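Per the submitters' processing notes, the deposited values are MAS5 signal intensities, a linear scale on which mismatch probes correct each probe set. The MAS5 version is not given in the sources used here. Total RNA of 12 leaf samples was measured, 1 array each. The mean of 22810 probe sets, trimmed by 2% at each end, was set to 100 on every array, which changed the deposited intensities very little. After 64 control probe sets were dropped, 16076 probe sets that reached 20 on 3 arrays were tested as log2(signal + 10). limma 3.58.1 in R 4.3.3 fitted 4 group means, with a trended, robust prior and Benjamini-Hochberg adjustment over all tested probe sets, and 7 contrasts were taken. Arrays give no read depth, and 3 arrays per group limit the precision.

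The platform annotation pairs 13513 probe sets with 1 gene, of which 13436 matched the RefSeq gene table, 503 with several and 8730 with none, and only probe sets of 1 gene are named. Named were both transporters, all SWEET genes with a probe set, up to 4 called genes of each pathway list per contrast, the 5 genes most alike and the 3 most opposite to each transporter, and the cell markers. Some listed genes without a call, such as TMT1 and SAG101, and the genes with the same 4 calls as SAG29 are named as well. The members and lists were chosen with earlier results of these data known. Alternatives were offsets of 1 and 32, other filters, quantile or no rescaling, a constant prior, fewer groups, a replicate block and leaving out arrays.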

Additional observations from a re-analysis of the deposited data

How the results depend on the processing

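The directions and calls of SAG29 held under the alternatives tried, except the genotype change in condition H and the sign of the interaction. The SAG29 change in condition H lost its call at an offset of 1 (-0.96, adjusted p = 0.179), and, at -0.83, without the filter (0.0664), with a constant prior (0.0597) and with only the groups compared (0.1). Without the 3 arrays highest on the within-group component, an alternative chosen after seeing the data, it was -0.95 (adjusted p = 0.078). The SAG29 interaction was -0.093 at an offset of 32. The SWEET17 change in condition H, -0.49, was called with a filter at 50 (adjusted p = 0.0442) and with only the groups compared (0.0226). The SWEET17 change in H in Ws-2 was -0.0099 with quantile normalization and -0.021 without the 3 arrays. The ATSPS4F call in condition H was lost with a constant prior (adjusted p = 0.0704) and with only the groups compared (0.0585). For H against L in ape2, AT1G19450 and COR15B lost their calls under both and without the filter (adjusted p up to 0.107). AT1G62660 lost its call there under these settings, at an offset of 1 and with the replicate block (up to 0.0898). The AT5G17010 call was lost without the filter (0.0582) and with a constant prior (0.0692). The causes were not tested.

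With each array left out in turn, the SAG29 change ranged from -1.22 to -0.91 in condition L, from -1.06 to -0.53 in condition H, from 1.75 to 2.28 in H against L in ape2 and from 1.57 to 1.80 in Ws-2, and from 0.04 to 0.57 for the interaction. The SWEET17 change ranged from -0.95 to -0.59 in condition L, from -0.63 to -0.39 in condition H, from 0.12 to 0.48 in H against L in ape2 and from -0.083 to 0.16 in Ws-2, where it was below 0 without Ws-2 L 3, Ws-2 H 1 or Ws-2 H 2. Counts of called probe sets ranged from 1024 to 1604 for ape2 against Ws-2 in L, from 1095 to 1843 in H, from 367 to 670 for H against L in ape2, from 265 to 506 in Ws-2 and from 0 to 7 for the interaction. The count for H against L was 648 in ape2, 422 with a constant prior and 383 with only the groups compared. In Ws-2 it was 474, and 305 with a constant prior. The interaction had 3 calls, 0 with a constant prior and 14 without the 3 arrays.

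Replicate numbers showed no clear pairing of the arrays, a question that 3 arrays per group could not settle. Over 18 pairs of same-numbered arrays the correlation of deviations from the group means ran from -0.28 to 0.37 (median 0.03), with 3 over 0.1. Over pairs with other numbers it ran from -0.25 to 0.27 (median -0.009). Of the 12 arrays, 3 correlated best with their own number. With the replicate block the SAG29 change in condition H had an adjusted p of 0.0446 and the SWEET17 change in condition L one of 0.0102, and no call of either gene changed. MAS5 signals near or below 20, such as SAG29 in ape2 L, carry little precision, and folds against them depend on the offset.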
